A study of Mus musculus with 19 samples.

Results

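Late Th2 cultures in which the transcription factor gene Gata3 was deleted were compared with late wild-type Th2 cultures by RNA sequencing. Th2 (T helper 2) cells form the CD4 T cell lineage known for interleukins 4, 5 and 13. The comparison uses 4 of the 16 RNA libraries of the series, 2 labelled late Gata3 KO and 2 labelled late Gata3 WT, all mouse (Mus musculus) total RNA. Each gene is represented by the transcript with the most reads over the 16 libraries, and a gene was kept where 2 or more of the 4 libraries reached an RPKM (reads scaled by transcript length and library size) of 1, which left 10193 of 22878 gene symbols. The series also holds early Gata3 KO and WT cultures, early and late Bcl11b KO and WT cultures, each with 2 libraries, and chromatin immunoprecipitation of GATA3 and Bcl11b from late wild-type Th2 cells. In the Bcl11b cultures, naive CD4 T cells carried Bcl11bfl/fl-CreERT2, early cells had 4 days of Th2 conditions, and late cells had 4 days, 1 day of rest with IL-2 and 4 more days, with 4-OHT (4-hydroxytamoxifen) present only in the KO arm of the last period. How Gata3 was deleted, the mice, their age and strain, and whether the Gata3 cultures followed the same times and drug is not stated in the labels. Nothing in the labels says that replicates came from separate cultures or mice, so the p-values cover only library-to-library spread, which may be technical.

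GATA3 is a zinc-finger factor that binds GATA motifs and directs naive CD4 T cells to the Th2 fate. It acts on the cytokine locus that holds Il4, Il13, Rad50 and Il5, and on genes for Th2 surface receptors such as the IL-33 receptor Il1rl1. It is also known to restrain the Th1 programme, in which T-bet (Tbx21), Stat4 and the IL-12 receptor lead to interferon gamma (Ifng).

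To show the DNA near genes that the comparison turns on, 4 promoters that a deposited GATA3 peak overlaps are given here. Each runs from 250 bases before to 50 bases after a RefSeq transcription start (GRCm38.p6), 5′ to 3′ on the strand of the gene. Capitals mark GATA hexamers: AGATAA or AGATAG with a leading A, and TGATAA or TGATAG with a leading T. Both strands were searched, and a match on the opposite strand is capitalised as its reverse complement. Of all 32851 RefSeq promoters of this length 29.8% held 1 or more of these hexamers. Il13 (chr11:53634653-53634952, minus strand, 1 match) and Il1rl1 (chr1:40429320-40429619, plus strand, 5 matches) belong to the genes that fell most, Il4 (chr11:53618616-53618915, minus strand, 1 match) was not called, and Gpr18 (chr14:121915839-121916138, minus strand, 0 matches), a G protein-coupled receptor of lymphocytes, rose. A peak also overlaps a promoter of Tox2 (chr2:163203033-163203332, plus strand, 0 matches), which is not printed. Tox2 fell by more than Il13 or Il1rl1 (log2 fold change -6.39). Another Il4 promoter under a peak (chr11:53617289-53617588, minus strand, 1 match) is not printed either.
Il13: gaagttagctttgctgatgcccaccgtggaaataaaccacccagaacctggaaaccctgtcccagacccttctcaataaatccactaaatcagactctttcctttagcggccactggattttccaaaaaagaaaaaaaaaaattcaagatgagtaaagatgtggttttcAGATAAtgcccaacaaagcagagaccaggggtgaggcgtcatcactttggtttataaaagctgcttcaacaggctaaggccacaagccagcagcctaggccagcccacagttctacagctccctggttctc
Il1rl1: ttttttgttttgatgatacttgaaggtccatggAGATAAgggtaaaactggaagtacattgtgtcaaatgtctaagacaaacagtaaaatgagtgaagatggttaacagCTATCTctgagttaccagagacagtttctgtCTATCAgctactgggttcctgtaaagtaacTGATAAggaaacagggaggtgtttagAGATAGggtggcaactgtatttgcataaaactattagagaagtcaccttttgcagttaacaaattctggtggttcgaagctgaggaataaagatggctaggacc
Il4: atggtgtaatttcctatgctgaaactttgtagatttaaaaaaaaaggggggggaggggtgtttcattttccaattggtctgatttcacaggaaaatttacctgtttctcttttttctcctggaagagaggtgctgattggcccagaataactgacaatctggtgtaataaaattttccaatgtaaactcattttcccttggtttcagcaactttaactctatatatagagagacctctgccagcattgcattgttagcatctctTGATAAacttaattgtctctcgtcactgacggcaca
Gpr18: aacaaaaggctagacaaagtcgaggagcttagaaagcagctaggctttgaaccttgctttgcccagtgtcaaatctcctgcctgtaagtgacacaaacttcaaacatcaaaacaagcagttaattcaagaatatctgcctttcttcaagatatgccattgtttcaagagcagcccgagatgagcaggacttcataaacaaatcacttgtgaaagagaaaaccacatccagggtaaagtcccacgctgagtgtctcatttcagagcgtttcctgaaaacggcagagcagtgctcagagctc

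Before any comparison, the libraries were checked against one another. The 4 late libraries held 5117526 to 9892746 reads assigned to genes, with late KO replicate 1 the shallowest. Replicates of a late group differed by 14.4 (KO) and 15.1 (WT) times the variance that read sampling gives (chi-square per degree of freedom). The early and late WT libraries with the same replicate number were closer to each other than that, at 4.57 for replicate 1 and 2.66 for replicate 2, against 15.3 and 16.3 for early and late WT libraries with different numbers. No gene differed between late and early WT by edgeR's quasi-likelihood test at an adjusted p under 0.05, and 123 of 10193 genes had an unadjusted p under 0.05. Late and early KO libraries differed by 62.0 and 66.5 on the same scale. The part of this likeness between WT libraries in the results was not tested. A fit of only the 4 late libraries called 653 genes higher and 409 lower, against 863 and 565 with the early libraries in the fit. Summed T cell markers (Cd3d, Cd3e, Lck, Cd4 and 6 more) were at 5155 to 5445 CPM in WT and 6443 to 6860 CPM in KO, where CPM are reads scaled to library size with TMM factors. B cell markers summed to at most 2.00 CPM in every late library, with Ms4a1 and Pax5 at 0 in all 4, and mast cell and basophil markers to at most 3.31 CPM, with 8 of 13 at 0. Macrophage and dendritic cell markers summed to 26.6 and 44.5 CPM in WT and to 18.3 and 23.6 CPM in KO, with Lyz2 at 0 in all 4 libraries. The sum hides members that went opposite ways. Of 3 tested, Emr1 (Adgre1) was called lower in KO (log2 fold change -3.60), Cd68 higher (0.94), and 1 was not called. The call of Cd68 was lost in the fit of only the 4 late libraries. Natural killer (NK) cell markers summed to 0.530 and 0.929 CPM in WT and to 6.24 and 9.82 CPM in KO, and 5 of the 8, Ncr1 among them, were at 0 in all 4 libraries. Most of each of these sums came from Eomes, a T-box factor that is also on the Th1 list below.

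In late WT cultures, Gata3 RNA (transcript NM_008091) stood at 1363 and 1313 CPM, against 1086 and 943 CPM in late KO. The groups did not overlap, but KO cultures kept most of the WT level. The fall was 0.40 on the log2 scale (log2 fold change -0.40 ± 0.11 SE, adjusted p = 0.0403), and the call was lost in 9 of 17 other settings, among them the fit of only the 4 late libraries. In early cultures the same gene was at 1172 and 1270 CPM in WT and 429 and 421 CPM in KO (-1.52), and the late fall was smaller by 1.12 (adjusted p = 0.00174 for the difference). Reads are counted over the whole transcript and the labels do not name the deleted exons, so this RNA level does not measure loss of the protein. Bulk RNA cannot tell fewer expressing cells from less RNA per cell. Bcl11b, the other factor of the study, was at 154 and 134 CPM in WT and 122 and 117 CPM in KO and was not called (-0.27 ± 0.12, adjusted p = 0.194).

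At an adjusted p under 0.05 (edgeR's quasi-likelihood test, Benjamini-Hochberg over all genes tested), 1428 of 10193 genes (14%) differed between late KO and WT. Of these 863 (8.47%) were higher and 565 (5.54%) lower in KO. The median log2 fold change was 1.00 among the higher and -0.86 among the lower genes, against 0.00 over all genes tested. More than 4-fold changes were found for 127 higher and 87 lower genes, and more than 16-fold for 16 and 28. Groups did not overlap for any called gene, which the test nearly requires, and over all genes tested they were separate for 2920 higher and 2589 lower genes. The plot of fold change against level shows that most calls were moderate and that steep changes lay on both sides.

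**Figure D1:**
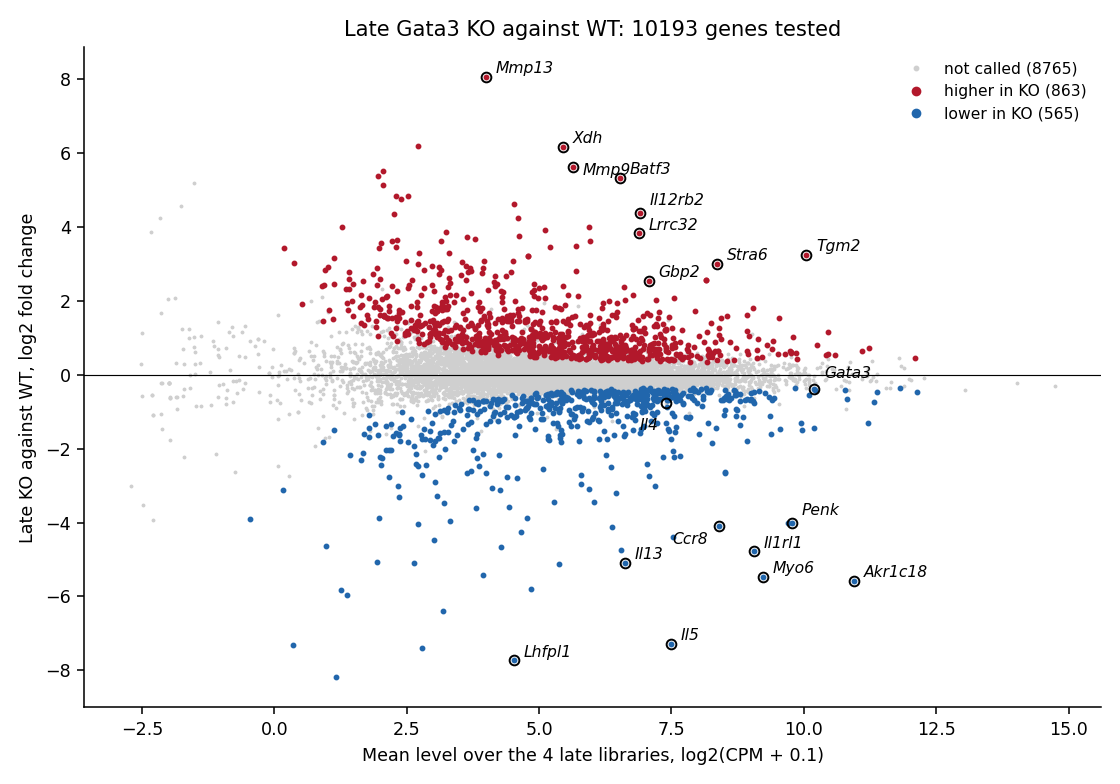
Late KO against WT log2 fold change (vertical axis) against the mean level over the 4 late libraries in log2(CPM + 0.1) (horizontal axis), 1 point per gene tested. Red points (863) are higher and blue points (565) lower in KO, grey points are not called, and circled genes are named in the text. Il5, Akr1c18, Myo6 and Il1rl1 stand out as steep falls at high WT levels.

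Several cytokines and receptors of Th2 effector cells fell steeply. Il5, which drives eosinophil growth, was at 430 and 286 CPM in late WT and 2.92 and 1.90 CPM in late KO, 156-fold lower by the fitted value (-7.29 ± 0.44, adjusted p = 1.36e-05). Il13, the cytokine of mucus and airway responses, was at 178 and 203 CPM in WT and 5.07 and 5.81 CPM in KO (-5.10 ± 0.21). Both KO libraries lay far below both WT libraries for each cytokine. Il1rl1, the IL-33 receptor, was at 980 and 1069 CPM in WT against 53.2 and 23.4 CPM in KO (-4.78 ± 0.34). Ccr8, a chemokine receptor of Th2 cells, was at 716 and 553 CPM in WT against 37.8 and 36.6 CPM in KO (-4.09 ± 0.22). Areg, an epidermal growth factor receptor ligand, was at 127 and 188 CPM in WT against 9.36 and 8.72 CPM in KO (-4.13 ± 0.31). Both KO libraries were below both WT libraries for these 3 genes, and the WT replicates differed far less than the groups. Penk, the enkephalin precursor, was at 1602 and 1689 CPM in WT and 107 and 98.5 CPM in KO, a fall in both libraries (adjusted p = 6.27e-06). Il10, an anti-inflammatory cytokine, fell less, from 1345 and 1618 CPM to 579 and 468 CPM (-1.50 ± 0.18).

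**Figure D2:**
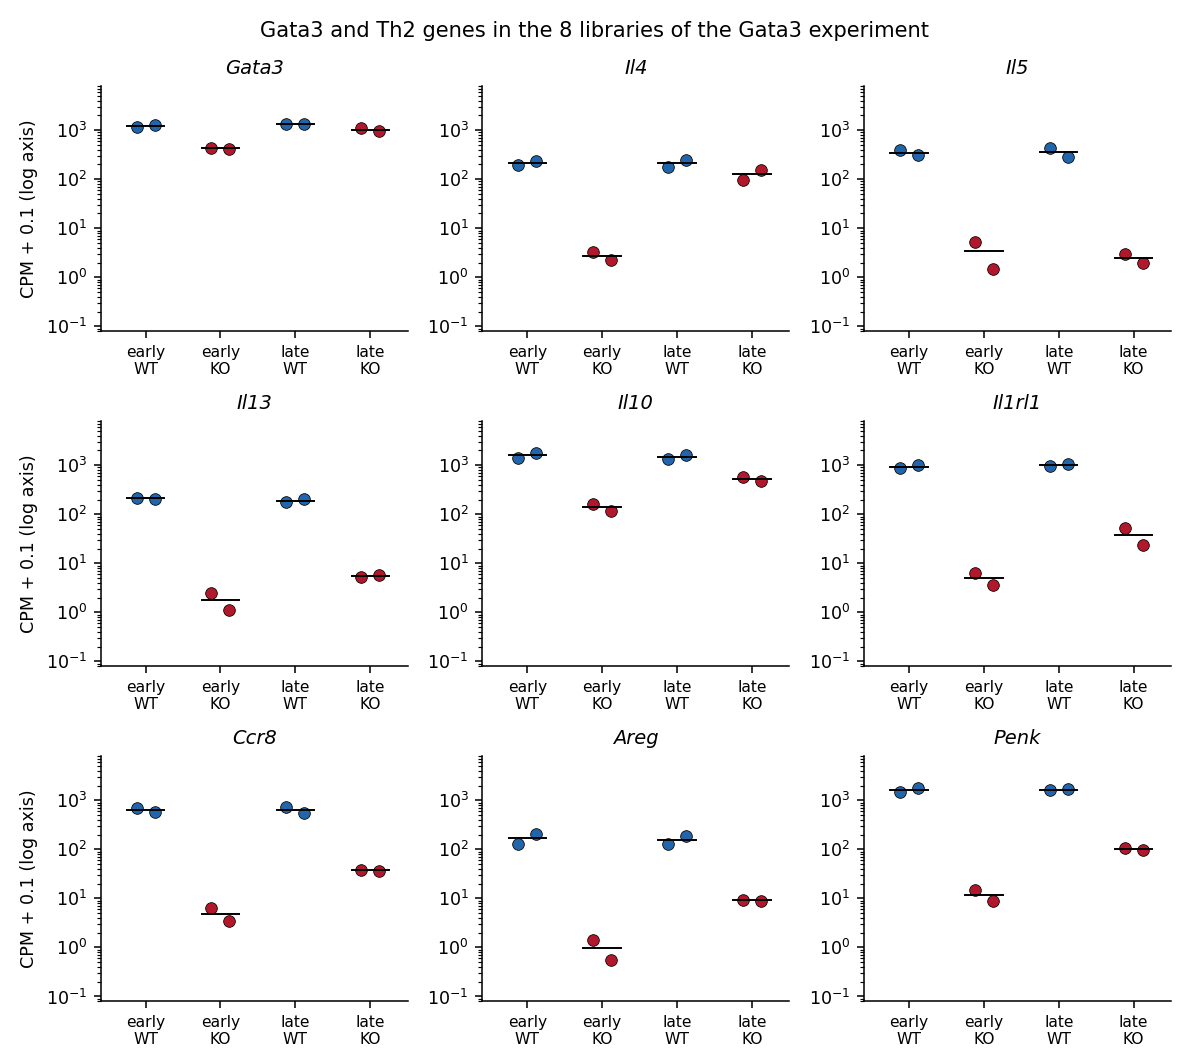
CPM + 0.1 on a log axis for Gata3 and 8 Th2 genes in the 8 libraries of the Gata3 experiment (blue WT, red KO, bars are means of 2 libraries). Late KO levels of Il5 and Il13 sit near 1.90 to 5.81 CPM, while Il4 is at 96.5 and 154 CPM in late KO against 3.17 and 2.19 CPM in early KO.

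Il4, the signature Th2 cytokine, was not called. It was at 177 and 249 CPM in late WT and 96.5 and 154 CPM in late KO, and the groups did not overlap (-0.76 ± 0.22, adjusted p = 0.0515, 2.94e-05 to 0.299 over 17 other settings, past the threshold in 7 of them). Rad50, the DNA repair gene between Il5 and Il13, fell modestly from 139 and 141 CPM to 89.7 and 87.3 CPM (-0.66 ± 0.12). Within the locus the late differences thus ran from -7.29 for Il5 and -5.10 for Il13 to -0.76 for Il4 and -0.66 for Rad50. Kif3a, the kinesin gene next to Il4, was at 128 and 146 CPM in WT and 171 and 158 CPM in KO and was not called either (0.26 ± 0.12, adjusted p = 0.210).

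Of 26 tested Th2 genes 12 fell, with a median of -0.71, where 5.54% of all genes fell. The 3 that rose are a share near the 8.47% of all genes. Beside those above, the factors Epas1 (976 and 1021 CPM against 336 and 322 CPM, -1.60), Pparg (131 and 182 CPM against 77.0 and 58.9 CPM, -1.21) and Batf (-0.93) fell. Il4ra, the IL-4 receptor chain, rose from 990 and 755 CPM to 2091 and 1769 CPM (1.15 ± 0.17), as did the factor Bhlhe40 (226 and 243 CPM against 771 and 852 CPM, 1.79 ± 0.13) and the receptor Ccr4 (0.67 ± 0.16). The Th2-associated factors Maf (-0.01 ± 0.23), Gfi1 (-0.09 ± 0.15), Irf4 (-0.15 ± 0.23) and Junb (0.17 ± 0.13) were not called. Il9 was at 0.619 and 7.63 CPM in WT and 0.780 and 6.01 CPM in KO, so its replicates differed more than its groups. The list therefore held steep falls, small falls and rises side by side.

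Several of the largest falls were in genes not usually thought of as lymphocyte genes. Akr1c18, the aldo-keto reductase that breaks down progesterone, was at 3794 and 3945 CPM in WT and 78.4 and 83.4 CPM in KO (-5.58 ± 0.21). Cyp11a1, which makes pregnenolone from cholesterol and was chosen after its values were seen, was at 1555 and 1576 CPM in WT and 125 and 72.5 CPM in KO (adjusted p = 2.86e-05). Both steroid enzymes were among the most abundant genes to fall. The related Akr1c12 and Akr1c13 fell by 3.45 and 3.09 on the log2 scale, and since members of this family share sequence, reads may be split between them. Myo6, an unconventional myosin, was at 1375 and 982 CPM in WT against 34.7 and 20.1 CPM in KO (-5.46 ± 0.37). Lhfpl1, a membrane protein gene, had 871 reads over both WT libraries and 3 over both KO libraries, a ratio of 229 with a 95% counting interval of 78.2 to 1115. Tox2, an HMG-box factor, had 338 WT reads and 3 KO reads, a ratio of 89.0 (30.2 to 434). These counting intervals cover sampling of reads only. The amino acid transporter Slc7a8 (-5.80), the aldehyde dehydrogenase Aldh3b2 (-5.42), the sialyltransferase St3gal6 (-5.12), parathyroid hormone Pth (-4.75), the membrane protein Mctp1 (-4.67), the ubiquitin ligase Rnf128 (-4.40), which is linked to T cell anergy, and the adhesion molecule Cxadr (-4.27) complete the 15 largest falls.

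Among the largest rises were proteases, serpins and immune receptors. Mmp13, a collagenase, had 2 reads over both WT libraries and 442 over both KO libraries, a ratio of 280 with a counting interval of 77.0 to 2316. Mmp9, a gelatinase, was at 2.68 and 1.27 CPM in WT and 99.8 and 95.2 CPM in KO (5.61 ± 0.36). Batf3, a basic leucine zipper factor, was at 5.16 and 3.82 CPM in WT and 183 and 176 CPM in KO (5.32 ± 0.31). KO replicates agreed closely for Mmp9 and Batf3. Xdh, xanthine dehydrogenase, was at 1.34 and 1.06 CPM in WT and 52.2 and 120 CPM in KO (6.17 ± 0.51). Lrrc32, the surface receptor for latent TGF-beta, was at 17.8 and 13.5 CPM in WT and 242 and 200 CPM in KO (3.82 ± 0.25). Tgm2, a transglutaminase, reached 2501 and 1336 CPM in KO from 307 and 98.9 CPM in WT (3.24 ± 0.63), with WT replicates that differed more from each other than the KO replicates did. Complement C3 (4.23), the membrane proteins Tmem176b (3.60) and Tmem176a (3.49), Gpr18 (3.44 ± 0.14, 6.30 and 6.04 CPM against 63.3 and 70.9 CPM) and the caspase recruitment domain gene Card6 (3.07) also rose. Serpina3f (4.62) and Serpina3g (3.91) belong to a cluster of near-identical genes, so their separate values are uncertain.

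Of 22 tested Th1 genes 12 rose, 0 fell and 10 were not called, with a median of 0.86, against 8.47% higher and a median of 0.00 over all genes. Il12rb2, the IL-12 receptor chain lost in Th2 cells, was at 12.3 and 9.75 CPM in WT and 169 and 290 CPM in KO (4.38 ± 0.27, adjusted p = 1.38e-05). Stat4, the transducer of IL-12 signals, was at 38.4 and 22.5 CPM in WT and 125 and 110 CPM in KO (1.94 ± 0.26). Il18r1 (2.68), Fasl (2.03), Lta (2.01) and Irf1 (0.83) rose, each with both KO libraries above both WT libraries. Ifng itself stood at 3.10 and 4.03 CPM in WT against 7.02 and 83.6 CPM in KO, so that almost all of its rise came from KO replicate 2. Its call (3.74 ± 0.87, adjusted p = 0.0191) was lost without KO replicate 2, without either WT replicate and in both limma fits. Tbx21, which encodes T-bet, was at 7.95 and 16.9 CPM in WT and 23.8 and 77.4 CPM in KO (2.07 ± 0.52, adjusted p = 0.0264), and its call was lost in 7 of 17 other settings, also without KO replicate 2. Runx3, a partner of T-bet, was not called (0.48 ± 0.17, adjusted p = 0.0996), except in fits such as that with replicate number as a block. The T-box factor Eomes, at 0.826 and 0.530 CPM in WT and 5.46 and 9.32 CPM in KO, did not pass the filter on low values. The number of Th1 members that rose was 8 without WT replicate 1, 9 without WT replicate 2, and 9 (with 2 lower) without KO replicate 2.

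Most tested interferon-inducible genes rose. Of 23 tested members 18 rose and 1 fell, with a median of 1.44, against 8.47% higher and 5.54% lower over all genes. Oas3, an antiviral RNA sensor, was at 14.5 and 13.5 CPM in WT and 71.1 and 74.9 CPM in KO (2.39 ± 0.15), and Zbp1, a nucleic acid sensor, at 58.9 and 65.0 CPM against 152 and 192 CPM (1.48 ± 0.13). The guanylate-binding proteins Gbp2 (33.4 and 45.6 CPM against 162 and 297 CPM, 2.55 ± 0.26), Gbp7 (1.52) and Gbp6 (1.70) and the immunity-related GTPases Igtp (1.60) and Iigp1 (2.79) rose. These GTPases have near-identical copies, and the counts for single members are uncertain. Mx1, an antiviral GTPase, was the 1 member that fell, from 12.4 and 14.6 CPM to 7.02 and 8.02 CPM (-0.83 ± 0.18). This call was lost in several other settings, among them the fit of only the 4 late libraries and that of all 16. In fits without 1 of the late libraries 14 to 16 members were called higher, and 13 in the fit of all 16 RNA libraries.

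Most tested cytotoxic genes of low level rose, and the abundant Gzma and Gzmb did not. Of 15 tested members 10 rose (8.47% over all genes) and 1 fell, with a median of 1.83, and none of the 10 exceeded 48.7 CPM in a late library. The filter kept 15 of the 25 members, and a gene low in WT could pass it through KO alone. The 10 of 15 and the median of 1.83 therefore depend on the filter. With no filter on low values 10 of the 25 listed members were called higher and 3 lower. Gzmc was at 5.99 and 5.30 CPM in WT and 29.4 and 32.5 CPM in KO (2.46 ± 0.29), the serpin Serpinb9, which blocks granzyme B, at 5.06 and 2.86 CPM against 10.9 and 16.9 CPM (1.85 ± 0.32), and perforin Prf1 at 5.06 and 4.13 CPM against 12.5 and 11.6 CPM (1.38 ± 0.35). Klrg1, an inhibitory receptor of the same list that did not pass the filter on low values, had 71 reads over both WT libraries and 1 over both KO libraries, a ratio of 56.1 (9.75 to 2247). Gzma fell from 4026 and 2752 CPM to 1787 and 935 CPM (-1.32 ± 0.34). Gzmb, the most abundant granzyme, was at 11387 and 7871 CPM in WT and 8827 and 5684 CPM in KO and was not called (-0.41 ± 0.27, adjusted p = 0.386), with groups that overlap. Each KO library was below the WT library of the same number, and an edgeR fit with replicate number as a block called Gzmb lower (adjusted p = 0.000837). The numbers are not stated to mark pairs. The number of members that rose was 2 without KO replicate 2, 5 without WT replicate 1, 6 without WT replicate 2 and 5 in the fit of all 16 libraries. The granzymes c to g are near-identical neighbours and their separate counts are uncertain. The summed NK cell markers were higher in KO as well, mostly through Eomes, as given above, and their part in these results was not tested.

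**Figure D3:**
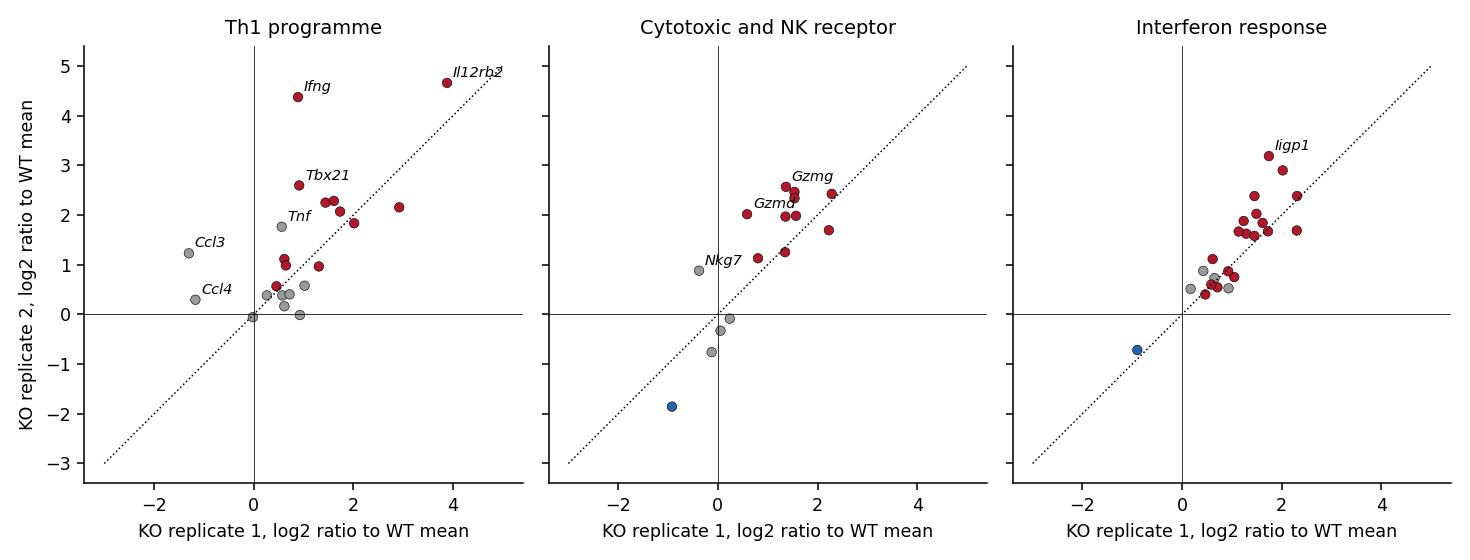
Each point is a tested gene of the Th1, cytotoxic or interferon list; the axes give log2((CPM + 0.5) over the WT mean CPM + 0.5) in KO replicate 1 (horizontal) and KO replicate 2 (vertical), with the dotted line at equality. Red genes were called higher, blue lower and grey not called; Ifng and Tbx21 lie far above the line (7.02 against 83.6 CPM and 23.8 against 77.4 CPM), while interferon genes lie closer to it.

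Lists of other helper lineages held calls in both directions, to be read against 8.47% higher and 5.54% lower over all genes. The shares called were above these in each list, only slightly so for Treg genes that rose. Each list is small, with 6 to 18 genes tested. Among 8 tested Th17 genes 3 rose, the Tmem176 pair among them, and 1 fell. The gene that fell was Ahr, the aryl hydrocarbon receptor (63.2 and 49.4 CPM against 17.9 and 15.5 CPM, -1.76 ± 0.18). Of 18 Treg and inhibitory receptor genes 2 rose, Lrrc32 and Havcr2 (1.30), and 3 fell, Il2ra (3198 and 3232 CPM against 1999 and 1846 CPM, -0.74), Icos (-0.68) and Prdm1 (-0.54), while Foxp3 (-0.43 ± 0.24) and Ctla4 (0.17 ± 0.14) were not called. The 2 that rose (11.1%) are a share near that of all genes, and the 3 that fell are 16.7%. Of 10 Tfh genes 3 rose, Cd200 (2.09), Tcf7 (1.62) and Btla (0.94), and 2 fell, Tox2 and Icos. Without KO replicate 2 only 1 Tfh gene was called higher. The call of Tcf7 did not hold without KO replicate 2 or without WT replicate 2. Of the 6 CD4 and CD8 lineage genes tested, Cd4 rose (649 and 693 CPM against 1052 and 1031 CPM, 0.63 ± 0.10). Cd8a rose at a low level (1.34 and 1.80 CPM against 7.21 and 6.41 CPM, 2.10 ± 0.34), and the integrin Itgae fell.

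Receptor and signalling lists held calls in both directions. In the common gamma chain and STAT list 8 of 22 rose and 4 fell, against 8.47% and 5.54% of all genes, and the 8 became 4 without WT replicate 1, 5 without KO replicate 2 and 3 with all 16 libraries. The feedback inhibitors Socs2 (229 and 205 CPM against 469 and 447 CPM, 1.08 ± 0.12) and Socs1 (0.63) rose with Il4ra, whereas Socs3 (-1.31) and Irs2 (-1.49), an adaptor of the IL-4 receptor, fell. Il9r, the IL-9 receptor, had 138 WT reads and 3 KO reads, a ratio of 36.4 (12.2 to 178). Of 21 TNF superfamily genes 9 rose, including Ltb (67.2 and 49.9 CPM against 185 and 292 CPM, 2.03), and 4 fell, with Tnfsf14 at -2.22, and the 4 became 2 without WT replicate 2 or either KO replicate. Of 11 chemokine receptors 4 fell, Ccr8, Xcr1 (-2.77), Cxcr6 (-1.47) and Ccr1 (-0.78, a call lost in 5 of 17 other settings), and 2 rose, Ccr4 among them. T cell receptor genes were mostly not called (18 of 25), with Themis (1.17) and Trat1 (2.15) up and the kinase Zap70 (695 and 652 CPM against 399 and 396 CPM, -0.76) and Ubash3a (-1.11) down, and the 5 higher calls became 2 without WT replicate 1 and 3 without KO replicate 2. Of 19 naive and memory genes 4 rose, Tcf7 and the survival gene Bcl2 (0.97) among them, and Cd27 fell (-1.07). Among 14 integrins and adhesion genes 4 rose, Itgb1 (1.34) among them, and 2 fell, Itgae (-2.05) and Icam2 (-0.46).

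Immediate response genes were also mixed, with 4 of 15 higher and 4 lower (26.7% each). This and the counts that follow are to be read against 8.47% higher and 5.54% lower over all genes. Glycolysis and hypoxia genes called higher (8.0%), and cell cycle genes (6.25%) and p53 targets (5.56%) called lower, were near those shares. Sterol synthesis genes and ATF4 targets called higher (5.26% each) were below the 8.47%. Fos (-2.66), Egr1 (-1.40) and Cd69 (-1.13) fell, and Atf3 (2.00) and Jun (1.07) rose. Among proliferation and metabolism genes few were called, and the counts moved with the setting. Of 32 cell cycle genes 0 rose and 2 fell, Kif23 (97.2 and 103 CPM against 60.6 and 56.4 CPM, -0.77 ± 0.11) and Aurka (-0.44), a call lost in 8 of 17 other settings, and the proliferation marker Mki67 was not called (-0.22 ± 0.11). Of 25 glycolysis and hypoxia genes 2 rose, Hk2 (105 and 97.9 CPM against 233 and 242 CPM, 1.23 ± 0.14) and Pgam1 (0.56), with 6 called with no filter, 4 without KO replicate 2 and 1 without WT replicate 2. Of 19 sterol synthesis genes 1 rose, Dhcr7 (1.28). Of 19 ATF4 targets 1 rose and 2 fell, Psat1 (-0.77) and Shmt2 (-0.61). Lower ATF4 targets numbered 10 with no filter, 4 without WT replicate 2 and 1 without WT replicate 1 or KO replicate 1. Of 18 p53 targets 3 rose, Fas (1.66) and Plk2 (1.38) among them, and 1 fell, Perp (-1.08). Of the antigen presentation markers 3 of 6 tested rose, Cd74 (1.34), H2-DMa (0.67) and H2-DMb1 (1.29), and Cd86 fell (-2.41). In the fit of all 16 libraries only 1 marker was called higher, and the calls of H2-DMa, H2-DMb1 and Cd86 were lost. The markers summed to 138 and 230 CPM in WT and 216 and 309 CPM in KO.

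**Figure D4:**
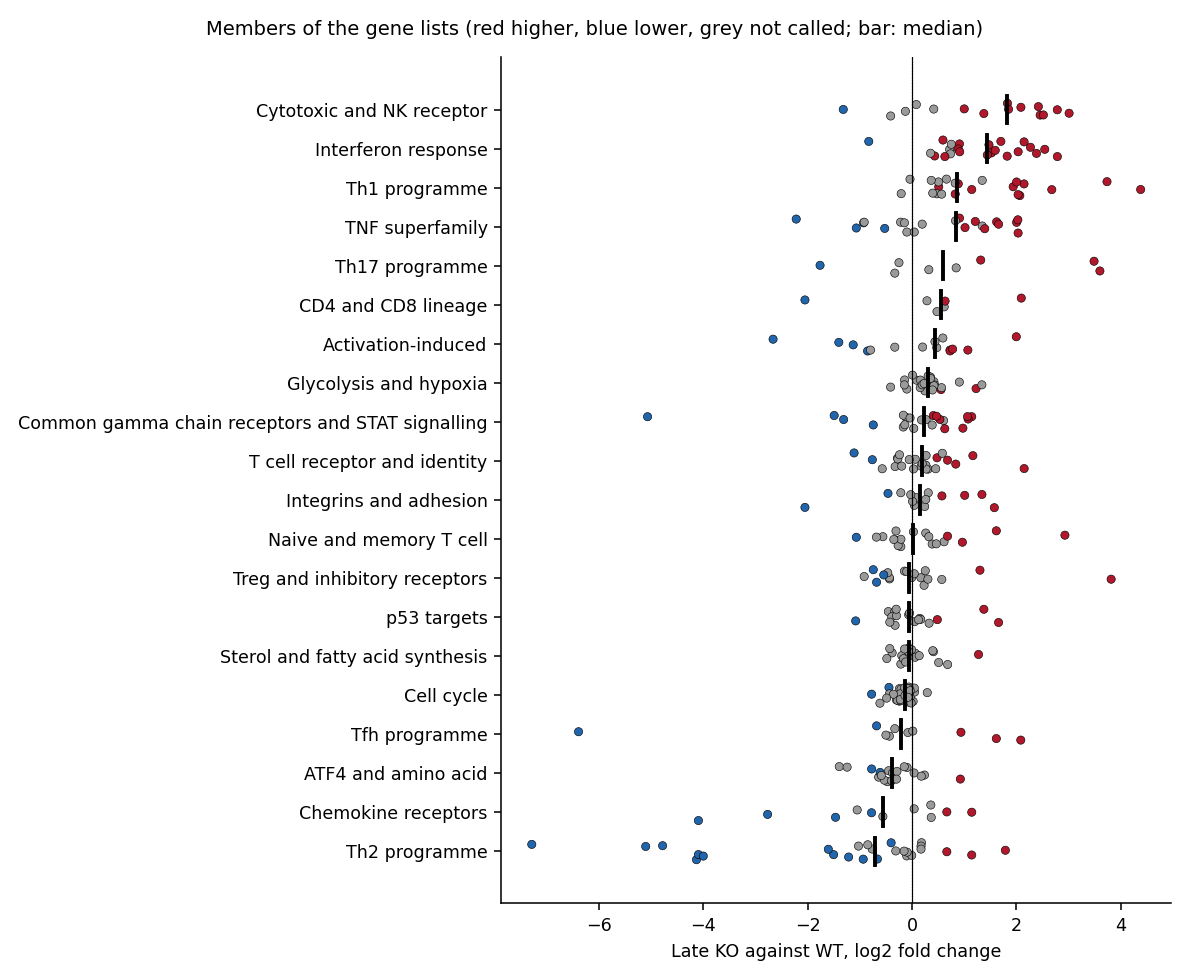
Log2 fold change of late KO against WT (horizontal axis) for the tested members of 20 gene lists (rows, sorted by median). Red and blue points are genes called higher and lower, grey points are not called, black bars are list medians from -0.71 (Th2) to 1.83 (cytotoxic), and the vertical line marks no change.

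The KO against WT difference was then compared between stages, at which Gata3 itself differed by -1.52 (early) and -0.40 (late). In the early cultures 2990 genes (29.3%) were called, 1337 higher (13.1%) and 1653 lower (16.2%). A test of the difference between the late and the early effect called 1194 genes (11.7%). Of these 775 (7.6%) were more positive late and 419 (4.11%) more negative. Genes were kept by their late levels, so genes high only in early KO are missing from the early and difference counts. Klrb1c, for example, had 780 reads over both early KO libraries and 1 over both early WT libraries, and was not tested. The balance of directions in these counts is limited by this. Late and early comparisons have separate KO and WT libraries, but same-numbered WT libraries were alike as described above. Of the 565 genes lower in late KO 415 (73.5%) were also lower early, and 12 (2.12%) were higher. Of the 863 genes higher in late KO 500 (57.9%) were higher early and 80 (9.27%) were lower early. Seen from the early side, 415 of 1653 early falls (25.1%) were also late falls, and 627 were significantly smaller late.

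Among the genes kept by the filter on late libraries, those whose early fall was absent or turned round in late cultures led the difference. Inhba, the activin beta A subunit, was at 92.0 and 87.0 CPM in early WT and 1.20 and 1.15 CPM in early KO, but at 77.2 and 74.3 CPM in late WT and 109 and 96.3 CPM in late KO, a difference between effects of 6.67 ± 0.22 (adjusted p = 6.91e-07). Its small late rise (0.44, adjusted p = 0.0304) lost its call in 9 of 17 other settings, DESeq2 and the fit of only the 4 late libraries among them. Timd2, a ferritin receptor of the Tim family, was at 27.0 and 39.7 CPM against 1.86 and 0.920 CPM early and at 28.9 and 35.4 CPM against 122 and 132 CPM late (6.55 ± 0.37). Mgll, the monoacylglycerol lipase (3.86), and Atp6v0d2, a proton pump subunit (5.81), likewise fell early and rose late. Stra6, the retinol uptake receptor, was at 68.3 and 79.5 CPM in late WT and 653 and 521 CPM in late KO (2.99 ± 0.29), against an early change of -3.55. In Timd2, Mgll, Atp6v0d2 and Stra6 late KO exceeded late WT although early KO was far below early WT. Il4 (5.55, adjusted p = 5.72e-05) and Il21 (5.17) had lost nearly all RNA in early KO and were not called in late KO. Serpinf1 (5.16), the kinesin Kif3a (3.91) and the cytoskeletal Ermn (5.77) were not called late either, and Ccr1 (5.91) had a late fall of 0.78 on the log2 scale, with the lost calls given above.

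For the genes that fell at both stages, Il5 and Lhfpl1 differed little between stages (differences of -0.59 and 0.57, not called). Il13 (1.81), Il1rl1 (2.78), Ccr8 (2.93), Penk (3.12) and Areg (3.40) fell less in late KO, although every one stayed more than 10-fold under WT. A late fall with an early rise was found for 12 genes. Carbonic anhydrase Car2, at 10.4 and 11.3 CPM in late WT, fell to 2.34 and 1.70 CPM in late KO but rose early (-2.48 late and 2.28 early), as did Mx1 and Gzma, and Car2 was chosen after its values were seen. Of the cytotoxic and Th1 genes, Prf1, Fasl and Serpinb9 had early rises of 6.72, 6.62 and 6.23 against 1.38, 2.03 and 1.85 late. Ifng reached 940 and 997 CPM in early KO, against 7.02 and 83.6 CPM in late KO.

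**Figure D5:**
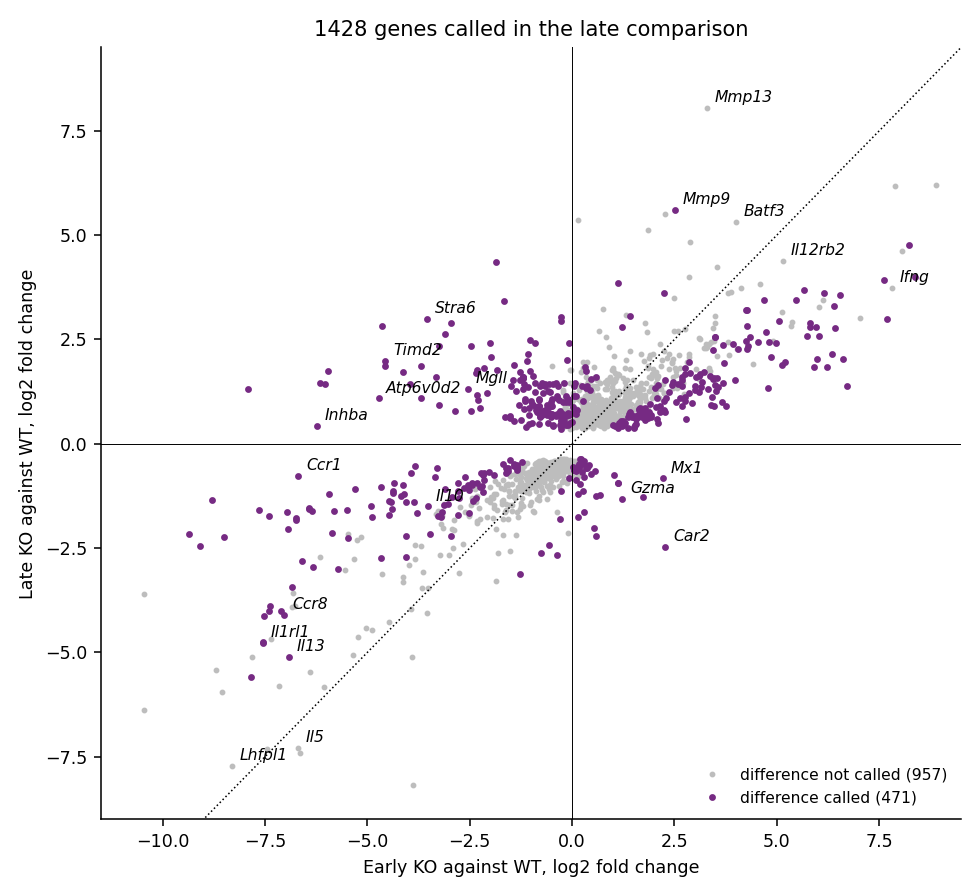
Log2 fold change of KO against WT in early cultures (horizontal axis) and late cultures (vertical axis) for the 1428 genes called in the late comparison. Purple points (471) had a called difference between stages, grey points (957) did not, and the dotted line marks equal effects. Timd2, Stra6, Mgll and Atp6v0d2 lie in the upper left, lower in early KO and higher in late KO. Inhba lies on the same side with only a small late rise, whose call was lost in other settings as given in the text.

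The late Gata3 comparison was then set beside the late Bcl11b comparison, in a fit of the 8 late libraries of both experiments. Bcl11b itself was at 149 and 188 CPM in late Bcl11b WT and 80.1 and 146 CPM in late Bcl11b KO, and was not called (-0.58 ± 0.22, adjusted p = 0.101). The late Bcl11b comparison called 1354 genes (13.3%), 716 higher (7.02%) and 638 lower (6.26%). The difference between the 2 effects was called for 846 genes (8.3%), 356 more positive (3.49%) and 490 more negative (4.81%). Levels of single genes could differ between the WT libraries of the 2 experiments, since Il13 was at 1693 and 2285 CPM in the late WT libraries of the Bcl11b experiment and 178 and 203 CPM in those of the Gata3 experiment. Penk rose from 785 and 928 CPM to 5638 and 4499 CPM in Bcl11b KO (2.57 ± 0.17), a difference between effects of -6.58 ± 0.25 (adjusted p = 1.58e-09). Il5 rose from 394 and 335 CPM to 1356 and 1049 CPM (difference -9.03) and Il13 rose by 0.75 (difference -5.88). Il4 rose by 1.16 in Bcl11b KO (difference -1.94, adjusted p = 0.00129). Akr1c18 (difference -5.68), St3gal6 (-5.32), Ccr8 (-4.44) and Lhfpl1 (-7.54) were not called in Bcl11b KO. Myo6 fell in both, by 1.72 on the log2 scale in Bcl11b KO, and its difference was -3.76. Stra6 changed in opposite directions, 2.99 in Gata3 KO and -0.87 in Bcl11b KO (difference 3.84). Of the 863 genes higher in late Gata3 KO 207 were also higher in late Bcl11b KO and 21 lower, and of the 565 lower genes 58 were lower and 64 higher.

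Peaks of GATA3 in late wild-type Th2 cells were assigned to the gene that the authors' deposited lists give as closest. There is 1 library per antibody, so the binding data have no replicate check. After removal of the 1413 GATA3 peaks that overlapped an input peak, 27199 remained. A GATA3 peak was assigned to 56.5% of all genes tested (95% Wilson interval 55.6 to 57.5), to 70.0% of the 863 higher genes (66.8 to 73.0) and to 80.7% of the 565 lower genes (77.3 to 83.7). For Bcl11b peaks the shares were 53.7%, 60.7% and 70.6%. Within 2 kb of a transcription start the GATA3 shares were 25.1%, 29.8% and 38.6%, and for peaks with a fold enrichment of at least 10, the authors' own value, they were 7.20%, 11.1% and 22.1%. Lower genes thus held GATA3 peaks more often than all genes by each of these counts, as a description of 1 library. The 2 antibodies were each read once, and no test of these shares was made.

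Near the genes of the results, Il13 had 9 GATA3 peaks, the highest at chr11:53635175-53636736 (mm10) with a fold enrichment of 25.4, and the peak over the promoter printed above had 8.85. Il1rl1 had 10, the highest at chr1:40427022-40427913 with 17.4, and 3.18 over its promoter. Il4 had 13, led by chr11:53617095-53618505 inside the gene's 5′ region with 11.1, which overlaps the Il4 promoter that is not printed, whereas the peak over the promoter shown had 2.04. Il5 had 3 peaks with at most 6.79. Of genes that rose, Batf3 had 6 peaks, the highest at chr1:191102575-191103348 with 17.8, Stra6 had 1 at its start with 11.2, and Il12rb2 had 10 with at most 4.78. Xdh, Mmp9 and Bhlhe40 had no GATA3 peak assigned. The hexamers marked in the promoters were found in 18.4% of 9127 promoters, which belong to 7177 of the genes tested. No promoter was matched to the other genes tested. The shares were 21.8% for promoters of the lower and 18.3% for those of the higher genes. For genes changed more than 4-fold they were 32.9% (lower) and 26.5% (higher). Over all RefSeq promoters, of genes tested or not, the share was 29.8%, and 37.1% among those that a GATA3 peak overlaps. These matches describe letters in a window and are not binding sites.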

How the data were processed

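RNA from mouse Th2 cultures was amplified from 10 ng with the NuGEN Ovation V2 kit, which keeps no strand, and sequenced on a HiSeq, per the labels' protocols. TopHat2 2.0.13, MACS 1.4.2, CASAVA 2.18, Novoalign, Bowtie and the mm10 build are listed without roles, per the submitters' processing notes. The deposited tables give read counts and RPKM per RefSeq transcript, as the authors made them, and the deposited peak lists give the authors' fold enrichment, a p-value score and a false discovery rate in percent, per the file headers; only the fold was used. The transcript with the most reads represented each symbol. Counts were scaled by TMM and tested with edgeR 4.0.16 (quasi-likelihood, 8 Gata3 libraries in 4 groups, or 8 late libraries of both experiments; Benjamini-Hochberg over 10193 genes, threshold 0.05). A log2 fold change is given ± its standard error. On simulated late counts, 92% to 94% of genes changed by 1 on the log2 scale were called. The simulation gave all genes the same spread, kept libraries independent and changed no genes of low level. This share therefore checks the fitting code and does not give the share of real changes found. Alternatives were DESeq2 1.42.0, RLE scaling, limma 3.58.1 on log2(RPKM + 1) and log2(RPKM + 0.1), no filter, all 16 libraries, the 4 late libraries, the longest transcript, a replicate block and leaving out each library.

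Named genes were a set of 14 Th2, Th1 and study genes, the 15 largest rises and falls whose higher group averaged an RPKM of 5 or more, up to 4 of each list, and the 8 differences with the smallest p between stages and between factors; further list members were named after their values were seen. The members and lists were chosen with earlier results of these data known. Peaks that overlapped an input peak by 1 base were left out. No mm10 genome was used here, so promoters from RefSeq stand in for peak sequences. Counting intervals cover counting error only. Some list members are counted but not reported here by name.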

Additional observations from a re-analysis of the deposited data

Results flagged for a closer look

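Each result here is a difference between 2 effects that edgeR's quasi-likelihood test called, either between late and early cultures or between the Gata3 and the Bcl11b KO in late cultures. The late minus early difference was called for 1194 genes. The 8 with the smallest p under the naming rule were Inhba (6.67 ± 0.22), Mgll (3.86 ± 0.18), Serpinf1 (5.16 ± 0.24), Kif3a (3.91 ± 0.19), Timd2 (6.55 ± 0.37), Ermn (5.77 ± 0.33), Ccr1 (5.91 ± 0.34) and Atp6v0d2 (5.81 ± 0.35). In all 8 the late effect was the more positive. The filter and the level limit of the naming rule used only late Gata3 libraries, so genes high only in early KO could not appear. The direction of these 8 was therefore partly set by that choice.

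The difference between Gata3 and Bcl11b was called for 846 genes. Penk (-6.58 ± 0.25), Il5 (-9.03 ± 0.37), Akr1c18 (-5.68 ± 0.27), Il13 (-5.88 ± 0.28), Ccr8 (-4.44 ± 0.25), St3gal6 (-5.32 ± 0.33) and Lhfpl1 (-7.54 ± 0.50) were lower, and Stra6 (3.84 ± 0.23) higher, in the Gata3 KO comparison than in the Bcl11b KO comparison. The fitted value of Lhfpl1 rests on 3 reads in late Gata3 KO.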

How the results depend on the processing

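The 863 higher calls became 387 in the fit of all 16 libraries and 1374 with a replicate block. The 565 lower calls became 289, 1027 and, with no filter on low values, 988. The fit of all 16 takes in 2 early Bcl11b WT libraries of another make-up. Reads in the genes counted were 20.7% and 16.9% of the read total that their RPKM implies. In the late Gata3 libraries this share was 55.8% to 60.3%. The part of this in the lower counts was not tested. Leaving out 1 library gave 471 to 853 higher and 331 to 562 lower. The 1194 differences between stages became 2076 with no filter, 569 with 16 libraries, 2274 with the block and 639 to 1344 without 1 library. The 846 differences between factors became 1541, 402, 2009 and 525 to 752. The replicate numbers are shared by the groups but not stated to be pairs; deviations of same-numbered late WT and KO libraries correlated at 0.372 over genes, and the block kept all 1428 late calls, called Gzmb (adjusted p = 0.000837) and Runx3 (0.00428), and raised the glycolysis genes called higher from 2 to 10 and the ATF4 targets called lower from 2 to 8. The late log2 fold change of Ermn, 0.02 and not called, changed sign to -0.013 with no filter, -0.045 and -0.047 in the limma fits, -0.0051 with the block, and -0.10 without late WT replicate 1, and ranged from -0.32 to 0.30 over the fits without 1 library, the lowest without late KO replicate 1; the cause was not tested.

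For peak shares of all, higher and lower genes, a limit of 2 kb gave 25.1%, 29.8% and 38.6% for GATA3 and 36.3%, 34.0% and 38.9% for Bcl11b. A fold of at least 10 gave 7.20%, 11.1% and 22.1% and 0.706%, 0.811% and 1.24%. With peaks that overlap input kept, GATA3 peaks were at 58.4% of all genes and Bcl11b peaks at 62.2%, 64.8% and 74.9%. With 2 libraries per group, the calls of Ifng, Tbx21, Gzmg and Serpinb9 were lost without late KO replicate 2, whereas Gzmc kept its call in all 17 settings.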

Other observations

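The genes in this paragraph belong to no list above and were chosen after their values were seen. Gimap3, a GTPase of lymphocyte survival, stood at 386 and 380 CPM in late WT against 1112 and 1084 CPM in late KO (1.52 ± 0.10). The large interferon-induced GTPase Gvin1 was at 87.2 and 77.0 CPM against 493 and 479 CPM (2.57 ± 0.14). Cblb, a ubiquitin ligase that limits T cell activation, was at 34.8 and 38.4 CPM against 137 and 143 CPM (1.94 ± 0.13). For these 3 genes both replicates of each group agreed closely. The secreted factors Lif (281 and 337 CPM against 59.1 and 73.3 CPM, -2.21 ± 0.28) and Fgl2 (673 and 588 CPM against 134 and 71.9 CPM, -2.63 ± 0.26) fell. Gpr15, a homing receptor, fell from 48.0 and 53.2 CPM to 3.90 and 3.11 CPM (-3.89 ± 0.28). The protease gene Furin fell in Gata3 KO (-2.19 ± 0.22) and rose in Bcl11b KO (2.34).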
